A study of Mus musculus with 4 samples.

Results

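The clustered protocadherins are tandem arrays of cadherin-like cell adhesion genes, and their variable first exons are described here by CpG methylation in embryonic mouse brain. The members were the protein-coding genes of GENCODE vM21 on chromosome 18 whose symbol starts with Pcdha, Pcdhb or Pcdhg, 57 of the 20722 autosomal protein-coding genes, with 14 in the alpha, 22 in the beta and 21 in the gamma cluster. They lie on the plus strand of GRCm38 within chr18:36930184-37841873. Pcdhgb8, annotated as a polymorphic pseudogene, falls outside this definition. For each isoform a window was taken that held its first exon and 1 kb on each side.

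Whole-genome bisulfite sequencing (WGBS), in which unmethylated cytosines are converted and read as thymines, was performed on brains dissected at embryonic day 11.5 (E11.5). Each of the 4 libraries came from 1 male embryo of the 129S6.cg Tet1<tm1Koh> line, a Tet1 knockout allele carried on the inbred 129S6 background. Their dams were heterozygous and had been adapted to custom diets with folic acid (FA) at 30 ppm, the excess diet, or at 3 ppm, the control diet. By the paper's account both diets also contained the antibiotic succinyl sulfathiazole. The groups were KO at 30 ppm, WT at 30 ppm, KO at 3 ppm and WT at 3 ppm, with 1 library in each. Values are given in that order, KO before WT. Tet1 encodes a dioxygenase that oxidises 5-methylcytosine. The embryo numbers in the titles match a sample list of the study in which both KO embryos had a neural tube defect, both WT embryos were normal and all 4 came from different litters, so genotype, phenotype and litter cannot be told apart in either diet. All tests on reads therefore compare single libraries, not conditions.

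Each variable first exon of the cluster carries its own promoter and encodes the whole extracellular part of 1 isoform. In the alpha and gamma clusters it is spliced to constant exons shared by the cluster, whereas beta genes have no constant exons. In neurons most promoters are chosen stochastically, under control of promoter methylation and of CTCF and cohesin, which gives each cell its own adhesion code for self-avoidance. The C-type isoforms Pcdhac1, Pcdhac2, Pcdhgc3, Pcdhgc4 and Pcdhgc5 stand at the ends of the alpha and gamma arrays and are known to be expressed more uniformly than the rest.

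All 57 windows could be measured, with 25 to 138 CpGs that had at least 5 reads in each library. Mean coverage per autosomal CpG was 13.2, 14.3, 21.2 and 16.2 reads in the 4 libraries. Coverage within the cluster span was 0.905 to 0.962 of those means. A window held 314 to 3437 reads per library, and the 95% Wilson interval of its level reached 1.31 to 5.46 percentage points to each side. Read counts of windows, tiles and regions are sums over their CpGs, so a read that covers several CpGs was counted at each. These intervals cover counting error only, and no value has a replicate. The intervals and the tests on reads treat such counts as independent, which calls of the same read are not. Intervals may thus be too narrow and p-values too small, most where CpGs are dense. The exons of neighbouring isoforms resemble each other, and after conversion of C to T a median of 10.04% of the 100-base stretches of an alpha exon recurred in another member, against 0.862% in beta and 0% in gamma. The windows used 27.2 to 98.3% of the CpGs of the reference, with Pcdhb8 the most sparsely covered at 25 CpGs, and 15 of the 57 windows overlapped that of another member.

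Clustered protocadherin first exons were methylated at intermediate levels, and the beta cluster was the highest and the gamma cluster the lowest in each of the 4 libraries. The median level over the 14 alpha isoforms was 59.7% and 62.2% at 30 ppm and 59.4% and 61.4% at 3 ppm. Over the 22 beta isoforms it was 63.0%, 64.9%, 62.0% and 64.1% in the same order. The gamma cluster gave 49.0%, 50.0%, 50.0% and 53.1%. The order beta, alpha, gamma thus held in every library, although alpha and beta medians lay within 4 points of each other. The windows were unlike in length, with a median first exon of 3714 bp in beta, 2494 bp in alpha and 2608 bp in gamma. The part of length in the order was not tested. Within gamma, the 12 Pcdhga isoforms had medians of 60.3%, 57.3%, 56.4% and 56.8%, and the 6 Pcdhgb isoforms 46.7%, 50.2%, 48.3% and 48.2%. Among all 19639 first-exon windows of the autosomes the median was 52.7% and 52.4% in the KO libraries and 43.8% and 43.3% in the WT libraries. The step from WT to KO in the medians of all first-exon windows was thus not present in the cluster medians.

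**Figure D1:**
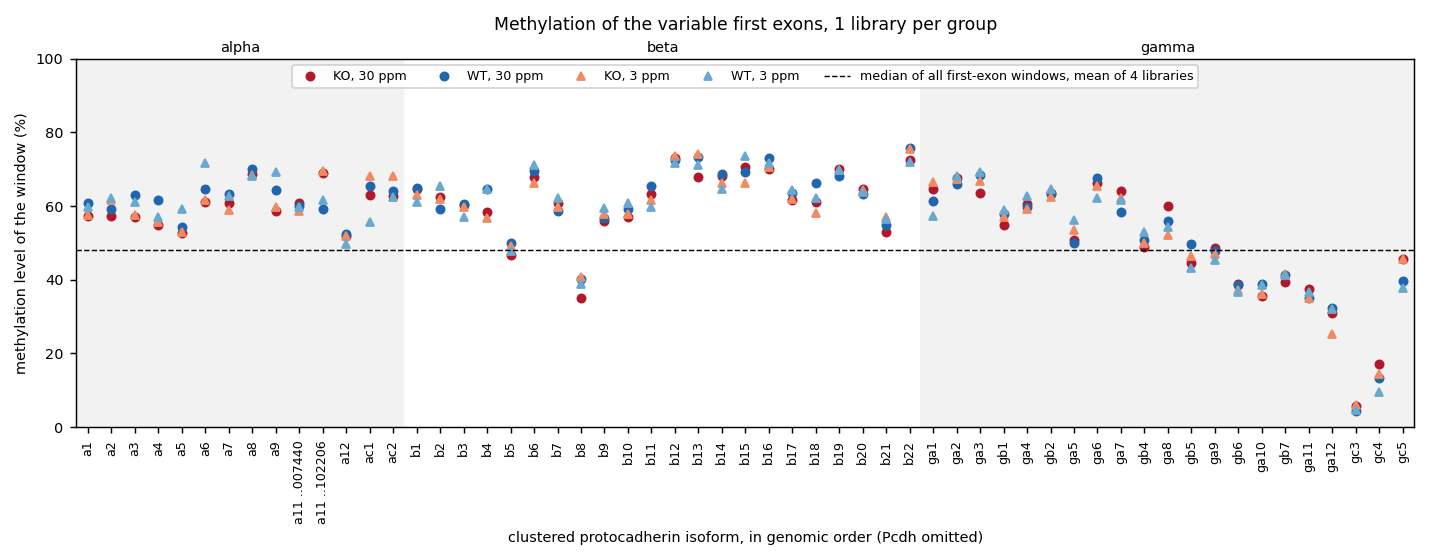
Methylation level (%) of the first-exon window of each of the 57 isoforms in genomic order, with 1 point per library (circles 30 ppm, triangles 3 ppm) and the mean of the 4 library medians over all first-exon windows as a dashed line. Levels lie mostly between 50 and 75% in alpha and beta and fall along the gamma cluster to Pcdhgc3 at 4.47 to 6.05%.

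Taken over all 3 clusters, isoforms differed more from each other than the libraries did. Over the 57 isoforms the levels of 2 libraries correlated with Pearson's r of 0.952 to 0.981, and the median absolute difference between libraries was 1.60 to 3.03 points. The SD over isoforms was 13.3 to 14.1 points. These correlations describe isoforms that share a library and a sequence composition, and no p-value is given. Within the alpha cluster, whose isoforms span a narrow range, r was 0.920 between the KO libraries, 0.659 between the WT libraries and 0.407 to 0.671 between a KO and a WT library (n = 14). There the SD over isoforms was 4.49 to 5.83 points, and the median range of an isoform over the 4 libraries was 5.74 points.

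Isoforms were ranked by the mean of the 4 libraries. In the alpha cluster Pcdha8 had the highest mean, with levels of 68.8%, 70.0%, 68.3% and 68.3%, and Pcdha11 ENSMUSG00000102206, 1 of 2 genes that carry the symbol Pcdha11 in this annotation, had the next. Pcdha8 was the highest in WT at 30 ppm alone, since that Pcdha11 was above it in both KO libraries and Pcdha6 and Pcdha9 in WT at 3 ppm. Pcdha12 was the lowest in each library, at 51.9%, 52.5%, 51.9% and 49.6% over the 4 libraries. Pcdha5 followed at 52.6%, 54.4%, 52.9% and 59.2%. The alpha isoforms therefore all stayed between 49.6 and 71.8% in every library.

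In the beta cluster Pcdhb22, the last gene of the array, had the highest mean, with levels of 72.6%, 75.9%, 75.6% and 72.0%. Its first exon is 6609 bp long, against a beta median of 3714 bp. In the first 500 bp of this exon, over 6 CpGs, the levels were 28.3%, 30.7%, 24.1% and 26.9%. They were 45.7 to 53.2% between 500 and 1000 bp, 88.6 to 92.8% between 3500 and 4000 bp and 90.7 to 96.2% between 4000 and 4500 bp. The part of exon length in the rank of Pcdhb22 was not tested. Pcdhb12 was next by the mean, at 73.2%, 72.5%, 73.7% and 71.7%, and was above Pcdhb22 in KO at 30 ppm. Pcdhb8 was the lowest at 35.0%, 40.2%, 40.8% and 39.0%, and stood apart from Pcdhb5, the next lowest, at 46.8%, 49.9%, 49.1% and 47.7%. The Pcdhb8 value rests on 27.2% of its reference CpGs. Pcdhb1, the first beta gene, was near the cluster median at 64.6%, 65.1%, 62.9% and 61.2%. Beta exons were the poorest in CpGs, with a median of 20.7 per kb, against 46.8 in alpha and 38.2 in gamma.

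The gamma cluster showed a gradient along the chromosome. Pcdhga2, at 67.8%, 66.0%, 67.3% and 68.2%, and Pcdhga3, at 63.5%, 68.4%, 66.7% and 69.2%, had the highest means, both at the upstream end, with Pcdhga3 the higher of the pair in the WT libraries. Levels then fell to Pcdhga12, the last A-type exon, at 31.1%, 32.4%, 25.4% and 32.2%. Without the C-type exons, Spearman's rho between position and level was -0.86, -0.89, -0.93 and -0.89 in the 4 libraries (n = 18). In the alpha cluster without C-type isoforms rho ran from -0.15 to 0.31 (n = 12), and in beta from 0.31 to 0.39 (n = 22). CpG density moved with the gradient, with a rho of -0.64 between CpGs per kb of exon and mean level in gamma, -0.45 in alpha and 0.04 in beta. Its part in the gradient was not tested.

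The C-type exons divided by cluster. Pcdhgc3 was nearly unmethylated at 5.79% and 4.47% at 30 ppm and 6.05% and 4.57% at 3 ppm, and Pcdhgc4 was low at 17.2%, 13.3%, 14.4% and 9.59%. Pcdhgc5 stood at 45.7%, 39.7%, 45.8% and 37.7%. Pcdhac1 was at 63.0%, 65.5%, 68.1% and 55.7%, and Pcdhac2 at 62.9%, 64.1%, 68.3% and 62.6%. Thus the C-type exons of alpha lay within the range of the other alpha isoforms over the whole window, and those of gamma were below the other gamma isoforms in the case of Pcdhgc3 and Pcdhgc4. The Pcdhac2 window used 33.1% of its reference CpGs, and the first 500 bp of its exon were at 0 to 3.85% over 6 CpGs.

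Methylation had a dip at the promoter whose depth and width differed by cluster. For beta isoforms the median level in the 250 bp before the exon start was 22.7%, 22.9%, 23.5% and 19.8%, and it was back to 68.2 to 75.4% between 500 and 750 bp into the exon. In gamma without C-type isoforms the same 250 bp held 16.7%, 16.2%, 15.9% and 17.5%, and the level was still 41.4 to 44.4% between 500 and 750 bp. Alpha isoforms had a shallower dip, with 40.4 to 45.8% before the start and 36.6 to 47.7% between 500 and 750 bp, and were back to 62.4 to 73.0% between 750 and 1000 bp, where gamma was at 52.7 to 59.7%. From 1 to 1.25 kb into the exon the medians of the 3 clusters lay at 63.5 to 78.2%. In the 250 bp before the start the ranges of the KO and the WT libraries overlapped in all 3 clusters. Between 250 and 500 bp into the exon they overlapped in beta alone. There gamma was at 28.7% and 27.6% in KO and 26.2% and 19.2% in WT at 30 and 3 ppm. Alpha went the other way, at 38.6% and 34.4% in KO and 45.2% and 42.5% in WT.

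**Figure D2:**
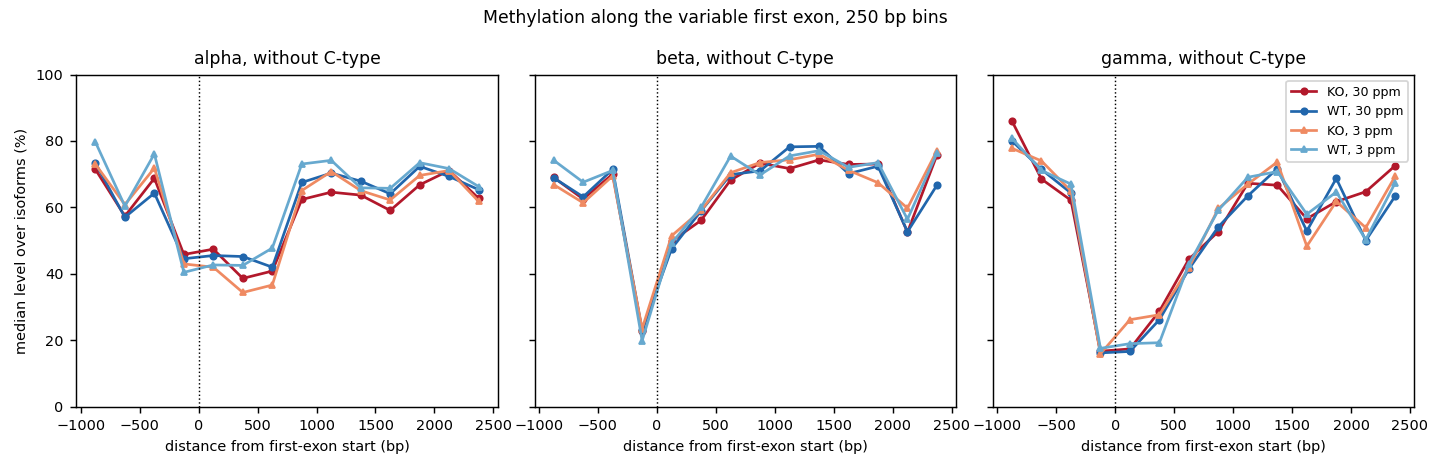
Median methylation level (%) over isoforms in bins of 250 bp, by distance from the first-exon start, for the alpha, beta and gamma clusters without C-type isoforms, with 1 line per library. The dip before the start reaches 19.8 to 23.5% in beta and 15.9 to 17.5% in gamma, and it is shallower in alpha.

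The intermediate levels were also seen at single CpGs. Of the 1514 CpGs in alpha windows, 60.8%, 60.8%, 63.7% and 58.0% had a level between 20 and 80% in KO and WT at 30 ppm and KO and WT at 3 ppm. The shares were 53.2 to 58.3% of 1621 beta CpGs and 49.3 to 53.5% of 1966 gamma CpGs. Across all autosomes 17.5 to 20.4% of CpGs were in this class, and 73.5 to 77.2% were at 80% or more. That set holds CpGs of every kind of region, and the CpGs of other first-exon windows were not classed. At a median of 12.8 to 20.8 reads per CpG over the windows, counting error of a single CpG is wide in both sets. The levels are averages over all cells of a brain, so partly methylated DNA in each cell and a mixture of methylated and unmethylated cells cannot be told apart.

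**Figure D3:**
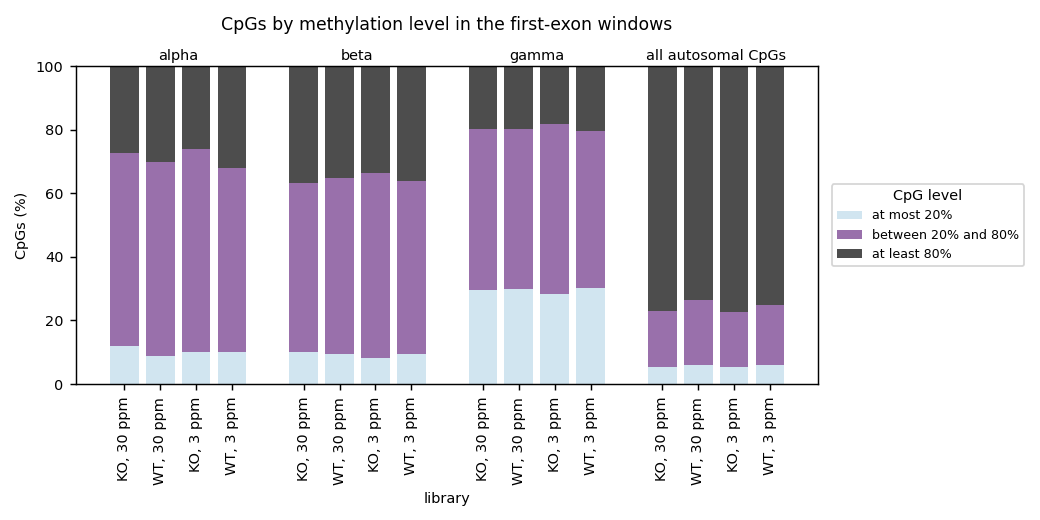
Share of CpGs (%) with a methylation level of at most 20%, between 20 and 80% and at least 80%, for the first-exon windows of each cluster and all autosomal CpGs, with 1 bar per library. The middle class holds 49.3 to 63.7% of cluster CpGs and 17.5 to 20.4% of autosomal CpGs.

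The constant exons differed from the variable exons and from each other. The long 3′ constant exon of alpha, at chr18:37184946-37187657, had levels of 85.4%, 81.1%, 85.2% and 84.9% over 30 CpGs, above every alpha first-exon window. The last gamma constant exon, at chr18:37839903-37841873, was at 22.4%, 17.3%, 25.04% and 23.9% over 33 CpGs. The first gamma constant exon held 5 CpGs at 2.22 to 7.50%, with 38 to 45 reads per library.

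KO and WT first exons were then compared within each diet, to ask whether loss of Tet1 goes with higher methylation in the cluster. A window was called at an adjusted p-value under 0.05 and a difference of at least 10 points (Fisher's exact test on reads, two-sided, Benjamini-Hochberg over 19639 windows). At 30 ppm, 0 of the 57 isoforms were called hypermethylated in KO and 0 hypomethylated, against 17.6% and 0.234% of all windows. At 3 ppm, 1 isoform was called hypermethylated and 1 hypomethylated, against 17.9% and 0.311% of all windows. By adjusted p-value alone, 1 isoform was higher and 9 were lower in KO at 30 ppm (25.7% and 0.611% of all windows), and 7 were higher and 7 lower at 3 ppm (29.7% and 1.26% of all windows). The cluster windows held a median of 87 CpGs, against 24 over all windows, so a p-value alone passes smaller differences in them.

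The differences of the cluster were centred near 0, while those of all windows were centred above it. At 30 ppm the median of KO minus WT over isoforms was -2.15 points in alpha, -1.70 in beta and 0.73 in gamma, against 4.05 over all windows. At 3 ppm it was -1.18, 0.35 and -0.86, against 3.31. In alpha 2 of 14 isoforms were higher in KO at 30 ppm and 5 of 14 at 3 ppm, in beta 6 and 12 of 22, and in gamma 13 and 10 of 21, against 78.8% and 75.4% of all windows. The 95% interval of the difference lay wholly below the median of all windows in 37 of 57 isoforms at 30 ppm and in 31 at 3 ppm, and wholly above it in 1 and 3. The share of all windows with such intervals was not computed. Intervals tend to be narrower in the cluster, where windows held a median of 87 CpGs against 24 over all windows.

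**Figure D4:**
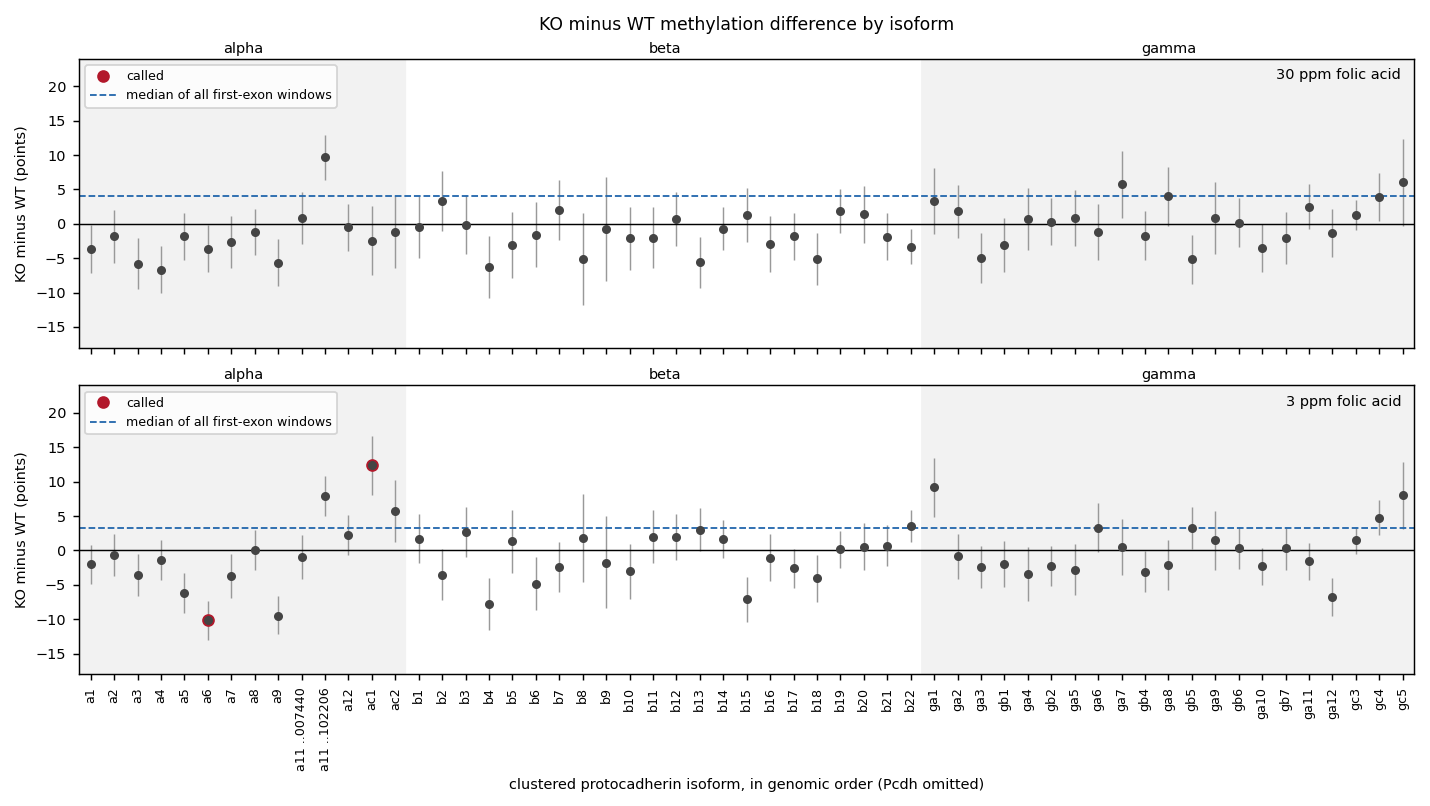
KO minus WT difference of the window level (percentage points) of each isoform in genomic order at 30 ppm (top) and 3 ppm (bottom), with 95% Newcombe intervals from the reads, the median over all first-exon windows as a dashed line, and called isoforms ringed in red. Most isoforms lie below the dashed line, and Pcdha6 and Pcdhac1 are called at 3 ppm.

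Exon length and starting level were examined as properties in which these windows differ from the average gene. Of 516 windows outside the cluster with a first exon of at least 2 kb, 69 were hypermethylated in KO at 30 ppm and 71 at 3 ppm, with median differences of 2.93 and 2.27 points. Windows outside the cluster whose WT level at the other diet lay between 40 and 75%, a range chosen after the levels had been seen, had median differences of 7.06 points at 30 ppm (4312 windows) and 6.33 at 3 ppm (4434 windows). Of these windows 27.6% and 29.2% were called hypermethylated. Over the 49 clustered isoforms in that range at either diet the medians were -1.57 and -0.98, with 0 and 1 called. These comparisons are descriptions, since isoforms of 1 locus are not replicates.

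Pcdhac1, the first C-type exon of alpha, was the isoform called hypermethylated in KO. Its window level at 3 ppm was 68.1% in KO and 55.7% in WT, a difference of 12.4 points (95% interval 8.11 to 16.6, adjusted p = 3.70e-07 by Fisher's exact test). At 30 ppm the levels were 63.0% in KO and 65.5% in WT, a difference of -2.48 points (-7.51 to 2.54, adjusted p = 0.540 by Fisher's exact test). The WT library at 3 ppm was the low one of the 4. In the first 500 bp of the exon the levels were 52.5% and 35.5% at 30 ppm and 63.8% and 23.5% at 3 ppm, over 9 CpGs, so both KO libraries were above both WT libraries there. Between 1 and 1.5 kb the order changed to 71.4%, 85.5%, 77.3% and 73.4%. With a minimum of 10 reads per CpG the difference at 3 ppm was 7.69 points and was not called, and in the 1 kb around the start site the difference was 19.1 points at 3 ppm, which was called, and turned to 4.01 at 30 ppm.

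Pcdha6 was the isoform called hypomethylated in KO. At 3 ppm its level was 61.6% in KO and 71.8% in WT, a difference of -10.2 points (-13.01 to -7.31, adjusted p = 2.29e-10 by Fisher's exact test). At 30 ppm it was 61.1% in KO and 64.7% in WT, a difference of -3.60 points. The call at 3 ppm was lost with a minimum of 10 reads per CpG, at -9.65 points, and within 1 kb of the start site, at -5.09 points (adjusted p = 0.113 by Fisher's exact test). Here the WT library at 3 ppm was the high one, and between 1.5 and 2 kb into the exon it reached 90.1% against 66.2%, 74.6% and 72.8% in KO and WT at 30 ppm and KO at 3 ppm.

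The gene with the largest positive difference at 30 ppm was Pcdha11 ENSMUSG00000102206. It had levels of 68.9% and 59.2% at 30 ppm and 69.6% and 61.7% at 3 ppm, so both KO libraries were above both WT libraries. The differences of 9.69 points (6.39 to 12.96, adjusted p = 4.67e-07) and 7.92 points (5.04 to 10.8, adjusted p = 1.47e-06, Fisher's exact test) fell short of the 10 points required. With the exon alone, without flanks, the difference at 30 ppm was 10.9 points and was called. Within 1 kb of the start site the differences were 4.87 points at 30 ppm (adjusted p = 0.207) and 0.99 at 3 ppm (adjusted p = 0.832, Fisher's exact test). This exon also shared the most sequence with other members, 16.5% of its 100-base stretches.

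The 5 C-type exons had higher levels in KO than in WT at 3 ppm in each case, although 4 of them were not called, and at 30 ppm 3 of the 5 were higher, against 75.4% and 78.8% of all windows. Differences at 3 ppm were 5.68 points for Pcdhac2, 1.48 for Pcdhgc3, 4.76 for Pcdhgc4 and 8.02 for Pcdhgc5. At 30 ppm they were -1.20, 1.32, 3.86 and 6.03. The 30 ppm value of Pcdhac2 depended on the setting. It was -8.20 points at a minimum of 2 reads (adjusted p = 0.00897 by Fisher's exact test), 1.38 at 10 reads and 2.56 around the start site. There all 5 C-type exons were higher in KO at 30 ppm by 0.62 to 4.01 points, with none called (adjusted p = 0.270 to 0.733 by Fisher's exact test). The share of all start-site windows that were higher in KO was not computed. For Pcdhgc5 both KO libraries, at 45.7 and 45.8%, were above both WT libraries, at 39.7 and 37.7%. Its interval was -0.311 to 12.3 points at 30 ppm (adjusted p = 0.165) and 3.10 to 12.86 at 3 ppm (adjusted p = 0.00707, Fisher's exact test). Pcdhgc4 showed the same order of libraries, with an adjusted p of 0.0900 at 30 ppm and 0.00188 at 3 ppm by Fisher's exact test. At 3 ppm its difference was 1.68 points with the exon alone (adjusted p = 0.707, Fisher's exact test) and 0.15 around the start site (adjusted p = 0.948, Fisher's exact test). With thinned reads and with a minimum of 10 reads the adjusted p at 3 ppm by Fisher's exact test was 0.0815 and 0.154 for Pcdhgc4, and 0.0721 and 0.226 for Pcdhgc5. The differences in these settings were 3.89 and 5.90 points for Pcdhgc4, and 7.59 and 11.05 points for Pcdhgc5.

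Within their windows the C-type exons were strongly structured. Pcdhac2 had 0 to 3.85% in the first 500 bp of its exon and 62.5 to 82.9% between 1 and 1.5 kb. In the 500 bp before its start the levels were 13.1% and 6.45% at 30 ppm and 21.3% and 2.83% at 3 ppm. Pcdhgc4 was at 0 to 0.565% in the first 500 bp and rose to 55.3 to 63.0% between 2.5 and 3 kb. Pcdhgc3 stayed at 10.1% or less in every 500 bp bin with at least 3 CpGs from 500 bp before to 2.5 kb after its start. The windows of Pcdhgc4 and Pcdhgc5 overlap and share CpGs.

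**Figure D5:**
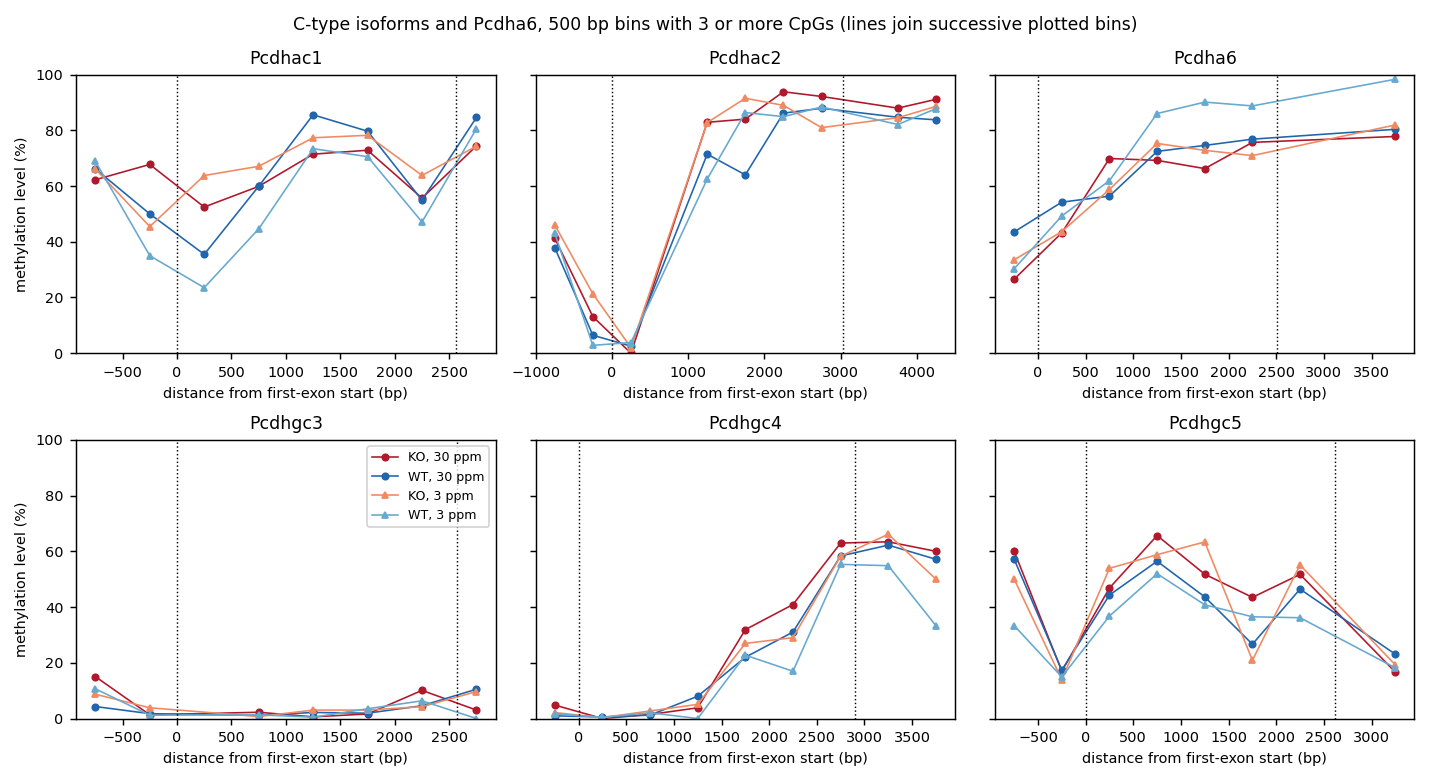
Methylation level (%) in bins of 500 bp with at least 3 CpGs, by distance from the first-exon start, for the 5 C-type isoforms and Pcdha6, with 1 line per library and dotted lines at the exon start and end. Both KO libraries are above both WT libraries in the first 500 bp of Pcdhac1, and Pcdhgc3 is low throughout.

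The span was also cut into 1 kb tiles, 676 with at least 3 CpGs, to include the DNA between the exons. At 30 ppm, 4 tiles were called hypermethylated in KO and 3 hypomethylated, against 1.13% and 0.0487% of all autosomal tiles. At 3 ppm these counts were 8 and 11, against 1.1% and 0.114%. As shares of the 676 tiles they were 0.592% and 0.444% at 30 ppm and 1.18% and 1.63% at 3 ppm, but these rest on few tiles. With a minimum of 10 reads the called tiles in either direction fell from 7 to 3 at 30 ppm and from 19 to 7 at 3 ppm, and thinning to the shallowest library left 8 at 3 ppm. Of the 3 hypomethylated tiles at 30 ppm all lay in alpha windows, those of Pcdha4, Pcdha6 and Pcdha9.

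A pair of tiles were called in the same direction at both diets, and the share of all autosomal tiles called so is not given here. The tile chr18:36999001-37000000 in the Pcdha9 exon was at 61.0% and 73.2% at 30 ppm and 60.1% and 74.6% at 3 ppm. In contrast, the tile chr18:37012001-37013000 in the exon of Pcdha11 ENSMUSG00000102206 was at 78.1% and 62.8%, and at 79.0% and 67.8%. These tiles had opposite signs, each with both KO libraries on the same side of both WT libraries, which calls at both diets make likely. Of the 371 tiles between windows, 3 were called hypermethylated and 0 hypomethylated in KO at 30 ppm, against 1.13% and 0.0487% of all autosomal tiles. At 3 ppm these counts were 1 and 3, against 1.1% and 0.114%. Among those called hypermethylated, the adjacent chr18:37217001-37218000 and chr18:37218001-37219000 lie between the alpha and beta arrays. They overlap only the readthrough loci Gm42416, Gm37013 and Gm37388 that run across the clusters. The first was at 12.7% and 4.13% at 30 ppm and at 13.8% and 3.48% at 3 ppm, and was called at 3 ppm. The second was at 14.4% and 3.92%, and at 11.6% and 3.33%, and was called at 30 ppm.

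Of the regions of differential methylation (DMRs) deposited by the study for KO versus WT, 3 lay in the span and all were listed as hypermethylated in KO. At 30 ppm, 0 of 57 windows overlapped such a region, against 3.92% of all windows, and the region in the span was at chr18:37839746-37840051, at the start of the last gamma constant exon. Its 10 CpGs had 90.8% and 46.0% at 30 ppm and 81.4% and 71.0% at 3 ppm. At 3 ppm, 2 of 57 windows overlapped a region, those of Pcdhac1 and Pcdhac2, against 4.84% of all windows. The region at Pcdhac1, chr18:37089857-37090608, held 13 CpGs at 56.5%, 45.2%, 63.1% and 27.0% in KO and WT at 30 ppm and KO and WT at 3 ppm. The region at Pcdhac2, chr18:37144752-37145002, held 5 CpGs at 82.9%, 71.4%, 82.8% and 62.5%. In both regions the KO library was also above the WT library at 30 ppm, where neither had been listed. This rests on 92 and 93 reads in KO and WT at Pcdhac1 and on 35 and 42 at Pcdhac2. It was not tested, and 78.8% of all windows were higher in KO at 30 ppm.

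Diet was compared within genotype. Between 30 and 3 ppm, 0 of 57 isoforms were called in KO and 0 in WT, where 0.657% and 0.606% of all windows were called hyper- and hypomethylated at 30 ppm in KO and 0.54% and 0.524% in WT. By adjusted p-value alone (Fisher's exact test), 3 of 57 isoforms passed in KO and 3 in WT, against 440 and 305 of all 19639 windows. Here too, more CpGs per window let smaller differences pass in the cluster. The isoform with the largest change was Pcdhac1 in WT, at 65.5% and 55.7% at 30 and 3 ppm, a difference of 9.78 points (5.00 to 14.5).

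The genotype difference at 30 ppm was set against that at 3 ppm by a Wald test on the reads, and 4 of 57 isoforms passed at an adjusted p-value under 0.05, against 2.04% of all windows. They were Pcdhac1, Pcdhb22, Pcdhgb5 and Pcdhb13, with opposite signs at the diets in each case. This test asks no minimum difference. It passes smaller differences in windows with more CpGs, of which the cluster windows held a median of 87 against 24 over all windows. With a minimum of 10 reads Pcdhb22 alone passed, with thinned reads or the exon alone Pcdhac1 and Pcdhb22 passed, and around the start site 0 passed. Signs also turned, for Pcdhb13 at 3 ppm with 10 reads (-0.37 points) and around the start site for Pcdhb22 at 3 ppm (-0.86 points) and Pcdhac1 at 30 ppm (4.01 points). In Pcdhb22 KO minus WT was -3.31 points at 30 ppm and 3.59 at 3 ppm. In Pcdhgb5 it was -5.17 and 3.24, and in Pcdhb13 -5.60 and 3.03. None of these 3 isoforms was called in either diet, and their levels in the 4 libraries spanned 3.89, 6.33 and 6.36 points. Across isoforms the differences at the 2 diets, which share no library, had Pearson's r of 0.735 in alpha without C-type exons (n = 12), -0.03 in beta (n = 22) and 0.184 in gamma without C-type exons (n = 18). Among these 12 alpha isoforms Pcdha11 ENSMUSG00000102206 had the highest difference at both diets, 9.69 and 7.92 points, and r without it was not computed. The alpha exons left out, Pcdhac1 and Pcdhac2, had opposite signs at the 2 diets. In all, 11 isoforms were higher in KO at both diets and 20 were lower at both. Of the 57, 21 were higher at 30 ppm and 27 at 3 ppm, and 36 and 30 were lower. Whether the diets agreed more often than these totals alone would give was not tested.

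A linear model over all 4 libraries, with genotype and diet as terms, drew its spread from what they left unexplained. It assumes that genotype and diet do not interact, and its single residual degree of freedom is that interaction. With limma, 0 of 57 isoforms passed an adjusted p-value of 0.05 for genotype, against 16.8% of all windows. At an unadjusted p-value under 0.05 the count was also 0, against 32.7% of all windows, and it was 5 on the scale of fractions and 1 with a minimum of 10 reads. The smallest adjusted p-value of a member was 0.161, for Pcdha11 ENSMUSG00000102206. Genotype and litter are joined in this design.

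Protocadherin genes outside the cluster were counted for comparison, without a test of the difference. Of 10 non-clustered protocadherins, 4 were called hypermethylated in KO at 30 ppm and 3 at 3 ppm, against 17.6% and 17.9% of all windows, with median differences of 6.27 and 4.62 points. Pcdh7, an adhesion protein of the delta group, had 45.7% and 18.3% at 30 ppm and 54.4% and 21.4% at 3 ppm. Pcdh15, a component of the tip links of hair cells, had 71.3%, 57.3%, 75.2% and 58.9%. Pcdh12, known from endothelial cells and placenta, lies on chromosome 18 beyond the gamma cluster and had 86.8%, 76.0%, 88.2% and 77.4%. These 3 were named because they were called at both diets. Pcdh18, the other gene called at 30 ppm, had 44.9%, 34.2%, 37.9% and 41.0%, so that KO minus WT was 10.7 points at 30 ppm and -3.15 at 3 ppm (adjusted p = 0.000206 by the Wald test between diets).

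Genes around and acting on the cluster were counted in the same way. Of 31 protein-coding genes within 500 kb whose windows overlapped no member, Pcdh1 and Pcdh12 of the preceding list included, 8 were called hypermethylated in KO at 30 ppm and 7 at 3 ppm, 25.8% and 22.6% of them against 17.6% and 17.9% of all windows, with median differences of 5.14 and 5.97 points. Of 17 genes for CTCF, cohesin and its loading and release factors, DNA methyltransferases, TET enzymes and silencing factors that act on the cluster or on its methylation, 0 were called at 30 ppm and 2 at 3 ppm, Dnmt3b and Setdb1, each hypermethylated, against the same shares of all windows. None of the 17 was called at both diets. The Tet1 window, at 95.4% and 93.6% in WT at 30 and 3 ppm, left no room for a gain of 10 points. That of Dnmt3a, at 88.0% and 87.8%, left little more.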

How the data were processed

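Each CpG of the deposited tables carries a methylated fraction and a count of covering reads, both made by the authors. They trimmed with Trim Galore 0.6.10, aligned them with Bismark 0.23.1 to GRCm38, removed duplicates and merged both strands of each CpG. Positions counted from 0 were shifted by 1, after which all 678653 CpGs listed on chromosome 18 lay on a CG of the reference. Fractions times counts gave methylated reads. Reads carry no molecular identifiers.

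The first exon was the longest exon numbered 1 among protein-coding transcripts. Only CpGs covered by 5 reads or more in every library were summed per window, and windows needed 5 such CpGs and tiles 3. Tests were Fisher's exact test, two-sided, a Wald test between log odds ratios (0.5 added per cell), and limma 3.58.1 in R on log2((methylated + 1)/(unmethylated + 1)), all adjusted by Benjamini-Hochberg over all windows or tiles, and all checked on simulated reads. Python 3.11.15 did the rest. Differences are KO minus WT, with Newcombe intervals. DMRs were called by the authors with DSS on single libraries, and only the positions in their deposited lists were used. DSS was not run here, and 1 library per group allows no comparison of replicates.

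Named were the C-type isoforms, Pcdhb1 and Pcdhb22, the 2 highest and 2 lowest isoforms of each cluster, up to 3 called isoforms per comparison and cluster, up to 5 passing the Wald test, and listed genes outside the cluster called at both diets. Other genes and tiles named (Pcdha9, Pcdha4, Pcdhga12, Pcdh18, Dnmt3b, Setdb1) were chosen after their values were seen. The members and lists were chosen with earlier results of these data known. Alternatives were the read minimum, thinning to the shallowest library, the window, removal of CpGs that look like sequence differences, and the scale of the linear model.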

Additional observations from a re-analysis of the deposited data

Results flagged for a closer look

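KO minus WT differed between the diets by the Wald test on reads in 4 of 57 isoforms, against 2.04% of all windows. They are listed here because the test of the difference itself passed. With a median of 87 CpGs in the cluster windows against 24 over all windows, smaller differences pass in the cluster. Pcdhac1 had -2.48 points at 30 ppm and 12.4 at 3 ppm, with an adjusted p of 0.0029. Pcdhb22 had -3.31 and 3.59 points, with an adjusted p of 0.0108. Pcdhgb5 had -5.17 and 3.24 points, with an adjusted p of 0.0333. Pcdhb13 had -5.60 and 3.03 points, with an adjusted p of 0.035. With a minimum of 10 reads Pcdhb22 alone passed, with thinned reads or the exon alone Pcdhac1 and Pcdhb22 did, and 0 passed around the start site. The sign of Pcdhb13 at 3 ppm turned with 10 reads (-0.37 points). Around the start site the signs of Pcdhb22 at 3 ppm (-0.86 points) and Pcdhac1 at 30 ppm (4.01 points) turned. Each value compares single libraries, and each group has 1 embryo, so the spread between embryos was not tested.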

How the results depend on the processing

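No paired analysis was possible because each group has 1 library, and no replicate could be left out. Of 53 recomputed counts and cluster medians, 39 stayed close to their value, and the other 14 are given next. Of 228 recomputed differences of named isoforms, 203 kept their direction and call, 21 that were not called changed sign, 3 lost a call and 1 gained one. For KO versus WT at 30 ppm the exon alone called 1 isoform in place of 0. At 3 ppm a minimum of 10 reads called 0, the exon alone 4 (adding Pcdha9 and Pcdhga1) and 1 kb around the start site 1, in place of 2; with 10 reads Pcdhac1 fell to 7.69 points and Pcdha6 to -9.65. Between diets 1 kb around the start site called 1 isoform in KO and the exon alone 1 in WT. The Wald test passed 7 isoforms with 2 reads, 1 with 10 reads, 2 thinned, 2 with the exon alone and 0 around the start site, in place of 4. Called tiles at 30 ppm were 3 with 10 reads in place of 7, and at 3 ppm 7 with 10 reads and 8 thinned in place of 19. The cause of these changes was not tested. The median level of each cluster moved by less than the counting interval of a window, and limma called 0 of 57 isoforms under every alternative run. In the exon-alone fit limma called 0 of 7123 windows, so that alternative says nothing of the members. CpGs that look like sequence differences numbered 36 in the span (0.436% of its CpGs, 1.33% of autosomal CpGs), and leaving them out changed no count of called isoforms.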
